A study of Homo sapiens with 6 samples.

Results

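CD22 is the inhibitory lectin of B cells, and the genes described here are CD22 itself and 6 genes that act with it: the phosphatase gene PTPN6, the sialic acid genes GNE, NANS, CMAS and ST6GAL1, and the related lectin gene SIGLEC10. They were taken by symbol from the table of deposited expression values, which holds 58735 genes, and all 7 were found on 1 row each. The cells were Raji, a human B-cell line from a Burkitt lymphoma, carrying a reporter labelled GFP-ffluc in both groups. They were kept overnight with the solvent DMSO (3 libraries, called D1 to D3 by their replicate number) or with 1 nM bryostatin-1 (3 libraries, B1 to B3), a natural product that binds and activates protein kinase C. Raji is a single tumour line, and the labels name no other cells in these samples.

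CD22 binds sialic acid at the ends of glycans on its own cell and on neighbouring cells. When the antigen receptor is engaged, the kinase LYN phosphorylates tyrosine motifs in the tail of CD22, and the phosphatase SHP-1, encoded by PTPN6, docks there and dampens the signal. Its ligands are made in steps: GNE and NANS build sialic acid from sugar nucleotides, CMAS charges it with a nucleotide, and ST6GAL1 attaches it to galactose in the linkage that human CD22 recognises. SIGLEC10 is another sialic acid receptor of B cells whose tail can recruit SHP-1.

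The 7 genes were each measured well above the counting limit. Levels are in FPKM, fragments scaled to gene length and to a depth per library set by the submitters, so that genes can be set side by side. Each library held 19405370 to 24468270 reads on genes. A count of 0 allows up to 3 reads, or 0.122 to 0.158 FPKM for a gene of 1 kilobase. SIGLEC10, the lowest of the 7, still had 73 to 169 reads per library. All 8 B-cell markers, among them MS4A1, PAX5 and CD79A, were expressed. Of 8 T-cell markers only LCK, at 36.8 to 48.9 FPKM, reached a mean of 1 FPKM, and none of 8 myeloid or 8 epithelial and stromal markers did. Summed levels per library were 0.104 to 0.402 FPKM for the 7 other T-cell markers, 0.388 to 1.58 FPKM for the myeloid markers and 0.311 to 0.747 FPKM for the epithelial and stromal ones. CD2, TRAT1, S100A8, MPO, EPCAM, COL1A2, DCN and PDGFRB were at 0 in all 6 libraries. D3 stood apart from its group in 15 cell-cycle genes, whose mean log2 level relative to the 6 libraries was -0.66 in D1 and -0.43 in D2 but 0.22 in D3, against 0.18 to 0.46 in the bryostatin libraries. Results that rest on D3 are therefore also given without it. Whether the libraries of a group were separate cultures is not stated in the labels, and the p-values reflect the spread between libraries, which may be technical.

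The comparison of bryostatin with DMSO asks which transcripts differed after treatment. None of the 7 genes passed an adjusted p of 0.05 in limma, a linear model with moderated variances, fitted to log2(FPKM + 1) over the 11071 genes whose mean reached 1 FPKM. No other gene passed either (0% of all tested), although 1954 had an unadjusted p under 0.05, and voom, a weighting of the reads, also gave 0. Without D3, 267 genes passed, 196 higher and 71 lower, and again none of the 7. Leaving out any other library gave 0 or 1. D3 was the DMSO library nearest to the bryostatin libraries in the cell-cycle genes, so leaving it out can by itself widen the difference between groups. At an unadjusted p under 0.05, limma gave 1 of the 7, ST6GAL1, which was lower, as did voom. Over all tested genes limma gave 17.6% at that level, and 7.18% in the lower direction. Scaling to a common total per library (TPM) turned that split over all genes from 1159 higher and 795 lower to 848 higher and 1099 lower, quantile normalization gave 893 and 1017, and removing a trend on GC content 986 and 1028. For the 7 genes the median log2 change was -0.11, beside 0.02 over all genes tested. Because 1 is added to each FPKM before the log2, a change in a gene as low as SIGLEC10 comes out smaller than it was.

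CD22 was the most abundant of the 7 in each library. It is gene ENSG00000012124, on the forward strand of chromosome 19 from 35319261 to 35347355 (hg38), with 6159 exonic bases. Its level was 139, 227 and 107 FPKM in D1, D2 and D3 and 174, 100.2 and 188 FPKM in B1, B2 and B3. D2, B1 and B3 were thus high and D3 and B2 low, and the groups overlapped fully. The group means were 157 ± 62.0 FPKM in DMSO and 154 ± 47.3 FPKM with bryostatin (SD, n = 3 each). The log2 change was -0.01 ± 0.33 (SE), with a 95% interval from -0.78 to 0.76 (adjusted p = 0.990 in limma). That interval runs from 0.581-fold to 1.69-fold, so a change of 1.5-fold in either direction lies inside it. In bulk RNA, fewer cells with a transcript and less of it per cell cannot be told apart. The log2 change was -0.25 without D3, and its sign turned without D2 (0.29) and without B2 (0.27).

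**Figure D1:**
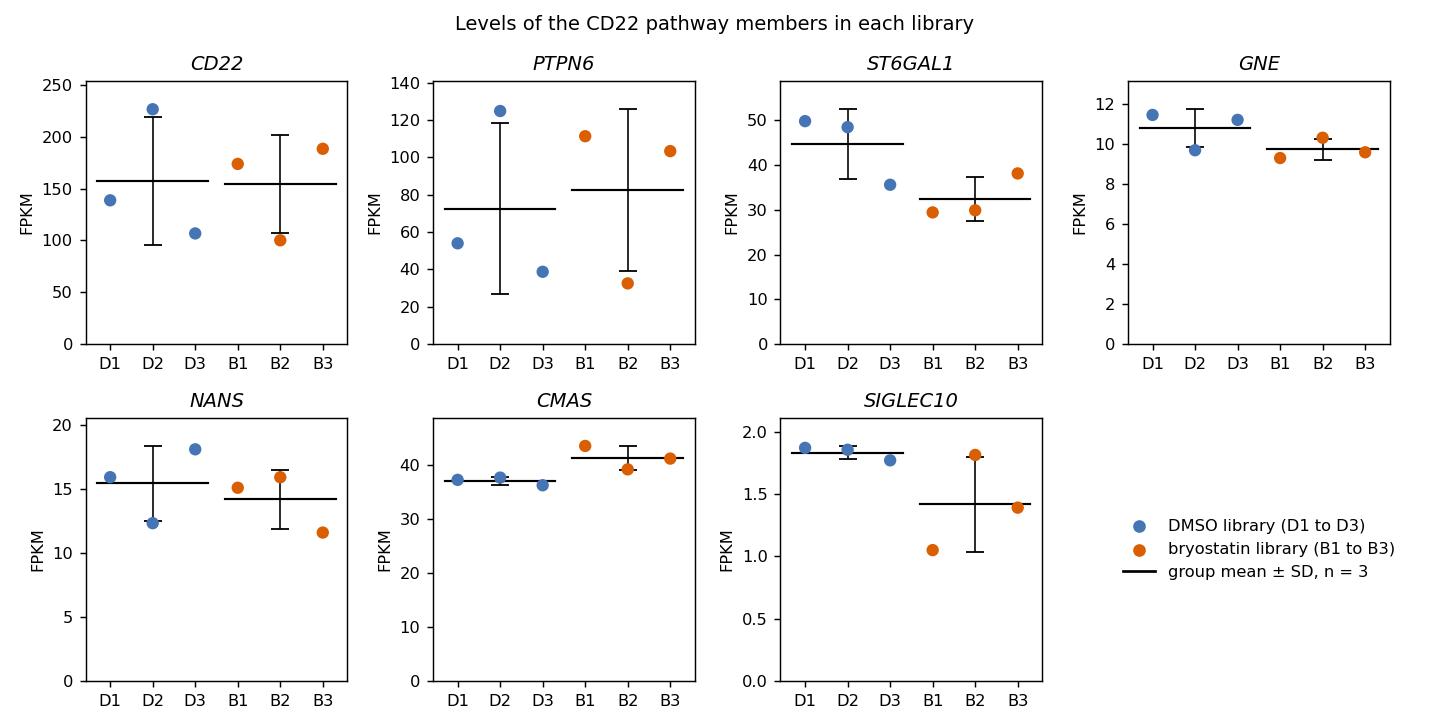
FPKM of the 7 genes (vertical axes, each from 0) in the 3 DMSO libraries (D1 to D3, blue) and the 3 bryostatin libraries (B1 to B3, orange), with the group mean and SD as lines. CD22 and PTPN6 vary widely within both groups, ST6GAL1 lies between 29.4 and 49.8 FPKM, and CMAS alone does not overlap between the groups.

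PTPN6, the gene of the SHP-1 phosphatase (ENSG00000111679, chromosome 12, 6946468 to 6961316, forward strand), went up and down over the same libraries as CD22, and further. Its level was 54.0, 125 and 38.8 FPKM in D1, D2 and D3 and 111, 32.6 and 103 FPKM in B1, B2 and B3. The libraries D2, B1 and B3 all lay above 100 FPKM and D1, D3 and B2 all below 55 FPKM, so the highest and lowest libraries of a group differed 3.22-fold in DMSO and 3.42-fold with bryostatin. The means were 72.5 ± 45.9 and 82.4 ± 43.4 FPKM (SD, n = 3 each). The log2 change was 0.17 ± 0.57 (SE), with a 95% interval from -1.16 to 1.51 (adjusted p = 0.894 in limma). Its sign turned without D3 (-0.18), without B1 (-0.14) and without B3 (-0.08).

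The spread of these genes between libraries of a group was far above counting error. PTPN6 in B2 rested on 3263 reads, with an exact Poisson 95% interval of 31.5 to 33.7 FPKM, and in D2 on 13699 reads, with 123 to 127 FPKM (counting error only). The within-group SD of log2(FPKM + 1) was 0.92 for PTPN6 and 0.52 for CD22, larger than in 99.2% and 96.9% of tested genes. CMAS had an SD of 0.06, and only 5.28% of tested genes had a smaller one. The SD of PTPN6 was 0.92 with TPM and 0.88 with a trend on GC content removed, and that of CD22 was 0.52 and 0.49. Among the bryostatin libraries the cell-cycle genes were lowest in B2, where CD22 and PTPN6 were lowest too. Their mean log2 level was 0.46, 0.18 and 0.23 in B1, B2 and B3. Among the DMSO libraries it was the reverse: the cell-cycle genes were highest in D3 (0.22), where CD22 and PTPN6 were lowest. The cell-cycle genes were low in D1 (-0.66) and in D2 (-0.43), where CD22 and PTPN6 peaked in D2. The part of the cell-cycle genes in the spread was not tested. The ratio of PTPN6 to CD22 within a library, computed after the values were seen, ran from 0.325 in B2 to 0.640 in B1, and the ratio did not separate the groups (exact permutation test, two-sided p = 0.7, with 0.1 the smallest that 3 against 3 libraries allow).

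**Figure D2:**
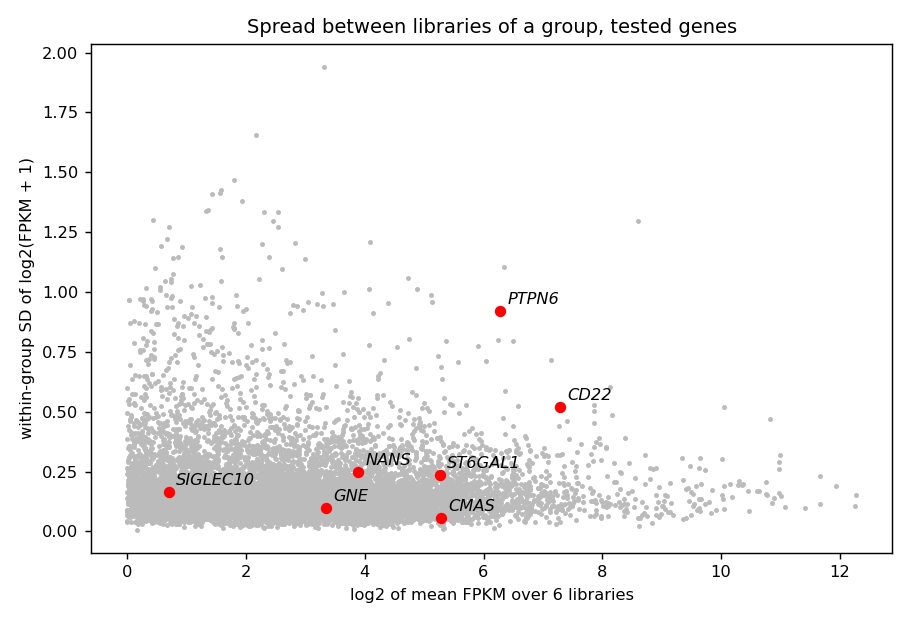
Mean level over 6 libraries (log2 FPKM, horizontal) against the within-group SD of log2(FPKM + 1) (vertical) for the 11071 tested genes (grey), with the 7 genes in red. PTPN6 (0.92) and CD22 (0.52) lie above most genes of their level, and CMAS (0.06) lies near the lower edge.

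Why CD22 and PTPN6 moved together over the libraries was not tested. The sequences around their RefSeq start sites are shown as a description (GRCh38.p14, forward strand, starts at 35329187 for CD22 and at 6946577 and 6951356 for PTPN6). CD22 has 1 such entry and PTPN6 2, an upstream start known from epithelial cells and a downstream one known from blood cells. The CD22 start lies inside the gene, which begins at 35319261. Which starts these reads came from cannot be read from values per gene. Capitals mark matches, on either strand, to the motifs searched.
CD22, chr19:35328937-35329236: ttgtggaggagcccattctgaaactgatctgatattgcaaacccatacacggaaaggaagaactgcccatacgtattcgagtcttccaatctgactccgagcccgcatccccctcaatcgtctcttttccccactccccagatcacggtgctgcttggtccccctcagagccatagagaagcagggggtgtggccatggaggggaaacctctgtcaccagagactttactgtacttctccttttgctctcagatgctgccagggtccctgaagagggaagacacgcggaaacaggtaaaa
PTPN6 upstream start, chr12:6946327-6946626: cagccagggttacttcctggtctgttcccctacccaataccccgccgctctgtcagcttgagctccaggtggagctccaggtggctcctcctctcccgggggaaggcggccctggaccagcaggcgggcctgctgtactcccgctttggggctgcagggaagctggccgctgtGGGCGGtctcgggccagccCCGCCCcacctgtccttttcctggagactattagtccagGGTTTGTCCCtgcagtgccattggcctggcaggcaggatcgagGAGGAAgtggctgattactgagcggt
PTPN6 downstream start, chr12:6951106-6951405: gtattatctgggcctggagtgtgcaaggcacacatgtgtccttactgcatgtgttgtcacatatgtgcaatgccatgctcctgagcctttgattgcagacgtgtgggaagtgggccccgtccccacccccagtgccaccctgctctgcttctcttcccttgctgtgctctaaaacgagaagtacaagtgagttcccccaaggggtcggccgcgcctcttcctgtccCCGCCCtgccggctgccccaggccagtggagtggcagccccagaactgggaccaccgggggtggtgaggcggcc
The motif GAGGAA, the core bound by the blood-cell factor PU.1, is held on either strand by 27.9% of 35116 promoters of this length. The motif TGANTCA, bound by AP-1, a family that protein kinase C can activate, is held by 7.71%. The NF-kB motif, searched as GGGA followed after 4 bases by CC, is held by 25.6% of those promoters. The GC box, searched as GGGCGG, is the most common and is held by 45.0%. The sequence TATAAA of the TATA box is held by 11.5% of promoters, and the octamer ATTTGCAT by 1.77%. The CD22 window held none of the 6 motifs. The upstream PTPN6 window held GAGGAA, 2 GC boxes and 1 NF-kB match, and the downstream window 1 GC box. The 3 windows thus had no searched motif in common, which says only that these letters are not in these windows.

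The genes nearest to CD22 in its pattern were sought over all 9264 other tested protein-coding genes, by the root mean square difference of log2(FPKM + 1) profiles centred on their mean over the 6 libraries. On this scale the nearest was ST3GAL1, a sialyltransferase gene, with a difference of 0.07. Its level was 1.58, 3.28 and 0.891 FPKM in D1 to D3 and 2.06, 0.785 and 2.76 FPKM in B1 to B3, so it peaked in D2 as CD22 did. Next came FCMR, the receptor for IgM (0.08), HLA-E, a non-classical MHC class I gene (0.08), TCTN1, a ciliary gene (0.09), and the tetraspanin CD53 (0.10). CD53 was at 212, 308 and 169 FPKM in D1 to D3 and 281, 137 and 288 FPKM in B1 to B3. PTPN6 ranked 863rd by this measure, with a difference of 0.35. The measure counts the size of a swing as well as its direction, so the wider swing of PTPN6 adds to its difference. In FPKM the highest and lowest libraries differed 3.83-fold for PTPN6 and 2.26-fold for CD22. The measure also depends on the 1 added to each FPKM, which shrinks the profile of a weak gene. ST3GAL1 differed 4.18-fold in FPKM, more than CD22 or PTPN6, so its small difference from CD22 rests on the added 1. The ranks of ST3GAL1 and FCMR, both under 4 FPKM, hold for this scale only and were not computed on another. NANS ranked 8894th, with 0.61. These differences describe 6 libraries and carry no test.

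**Figure D3:**
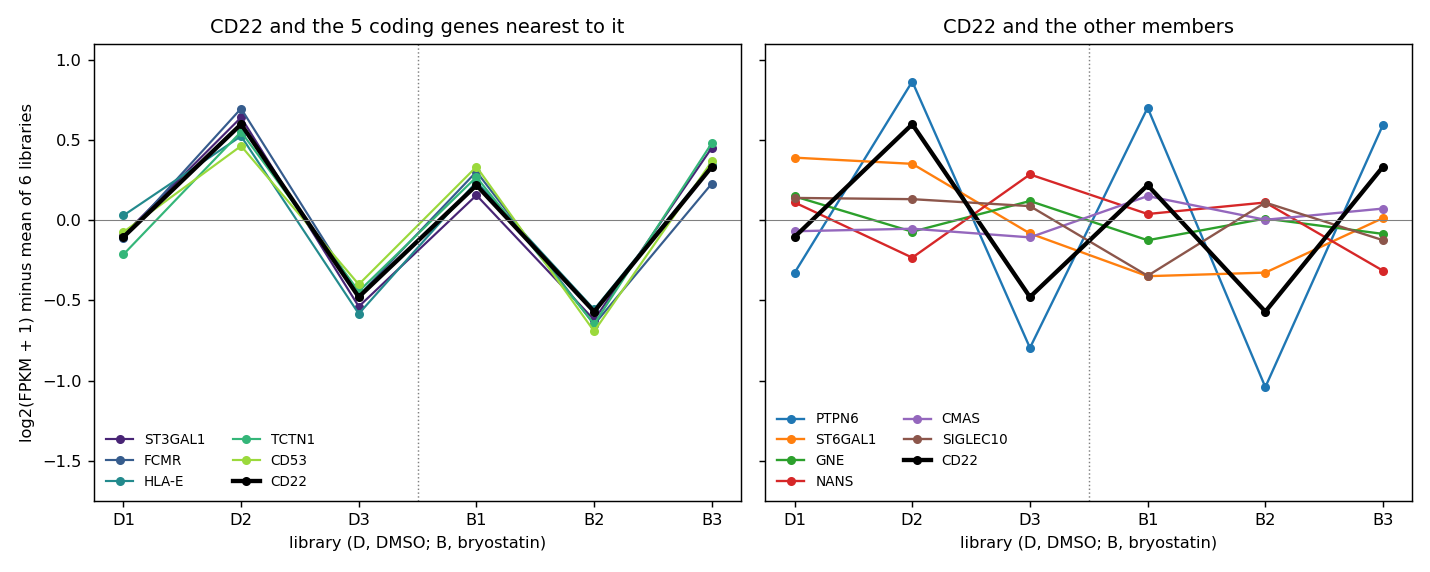
Log2(FPKM + 1) minus the mean of the 6 libraries (vertical) in each library (horizontal; D, DMSO, B, bryostatin), for CD22 (black) with the 5 nearest coding genes on the left and with the other 6 genes on the right. The left profiles stay within a root mean square difference of 0.10 from CD22, and on the right PTPN6 has the same peaks with a wider swing.

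The genes around CD22 had few reads beside its 12346 to 30574. U62631.1 (ENSG00000269553, chromosome 19, 35330843 to 35331920) is annotated as a transcript within a CD22 intron on the same strand and shares 15 exonic bases with it. It was at 26.7, 70.2 and 25.8 FPKM in D1 to D3 and 41.7, 22.8 and 47.5 FPKM in B1 to B3, on 198 to 669 reads, and it peaked in D2 as CD22 did. Reads on the shared bases cannot be told apart. MAG, the myelin lectin gene that lies next to CD22, had 0, 30 and 5 reads in D1 to D3 and 25, 1 and 25 reads in B1 to B3. FFAR1, a fatty acid receptor gene on the other side, had 9 to 31 reads, and the microRNA gene MIR5196, within CD22, had 2 reads in B3 and 0 elsewhere. FFAR3 and GPR42 had no read.

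SIGLEC10 (ENSG00000142512, chromosome 19, 51410021 to 51417803, reverse strand) was expressed at a low level. Its FPKM was 1.87, 1.85 and 1.77 in D1 to D3 and 1.05, 1.81 and 1.39 in B1 to B3. The DMSO libraries lay close together, while B2 lay within the DMSO range and B1 and B3 below it. The means were 1.83 ± 0.0539 and 1.42 ± 0.382 FPKM (SD, n = 3 each), with a log2 change of -0.24 ± 0.14 (SE; adjusted p = 0.380 in limma). The 73 reads in B1 gave an exact Poisson 95% interval of 0.823 to 1.32 FPKM, and the 133 reads in B2 one of 1.52 to 2.15 FPKM. Without B1 the log2 change was -0.13 and without B2 it was -0.36. SIGLEC10 overlaps 2 antisense genes, AC008750.1 and AC008750.2, which share 236 and 594 exonic bases with it and had 0 to 9 reads per library. Reads on the shared bases cannot be told apart without a stated strand setting.

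Among the 15 Siglec genes listed, CD22 and SIGLEC10 were the only ones with a mean of at least 1 FPKM. CD22 made up 98.0% to 99.0% of their summed FPKM in each library. MAG had a mean of 0.182 FPKM in DMSO and 0.285 FPKM with bryostatin. No read was counted on 6 Siglec genes (SIGLEC5, SIGLEC6, SIGLEC8, SIGLEC9, SIGLEC11 and SIGLEC12) in any library. Many Siglec genes are near-identical in parts, so single values of the weak ones are uncertain.

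Of the 3 genes that make and activate sialic acid, GNE and CMAS varied little between libraries of a group and NANS more, with a within-group SD larger than in 82.2% of tested genes. GNE, whose enzyme takes the first and rate-limiting steps (ENSG00000159921, chromosome 9, 36214441 to 36277056, reverse strand), was at 11.4, 9.67 and 11.2 FPKM in D1 to D3 and 9.29, 10.3 and 9.57 FPKM in B1 to B3. The ranges overlapped, with means of 10.8 ± 0.954 and 9.72 ± 0.522 FPKM and a log2 change of -0.13 ± 0.09 (SE; adjusted p = 0.457 in limma). GNE lies inside the span of CLTA, the clathrin light chain A gene, on the opposite strand, but the 2 genes share no exonic base in GENCODE 29. NANS, the sialic acid synthase (ENSG00000095380, chromosome 9, 98056739 to 98083075, forward strand), was at 15.9, 12.3 and 18.1 FPKM in D1 to D3 and 15.1, 15.9 and 11.6 FPKM in B1 to B3. Its lowest libraries, B3 and D2, were the 2 highest for CD22. The log2 change of NANS was -0.11 ± 0.17 (SE; adjusted p = 0.750 in limma), and its sign turned without D3 (0.0060) and without B3 (0.02). NANS shares 422 exonic bases with TRIM14 on the other strand, which was at 20.3 to 26.6 FPKM, and without a stated strand setting reads there cannot be told apart.

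CMAS, which activates sialic acid in the nucleus, was the steadiest of the 7 and alone did not overlap between the groups. It is gene ENSG00000111726, on chromosome 12 from 22046174 to 22065674. Its level was 37.2, 37.6 and 36.2 FPKM in D1 to D3 and 43.5, 39.2 and 41.2 FPKM in B1 to B3, each bryostatin library being above each DMSO library. The means were 37.0 ± 0.729 and 41.3 ± 2.17 FPKM (SD, n = 3 each). The log2 change was 0.15 ± 0.08 (SE), or 1.11-fold (adjusted p = 0.352 in limma). Over all tested genes 12.9% did not overlap in this direction and 23.6% in either, so 1 in 7 is near the background. The log2 change was 0.14 without D3 and 0.06 with a trend on gene length removed. CMAS overlaps ST8SIA1 without sharing an exonic base, and ST8SIA1 had 1 to 4 reads. The transporter SLC35A1 and the phosphatase NANP were named after their values were seen. SLC35A1, which carries activated sialic acid into the Golgi, had a log2 change of -0.14, and NANP, which acts between NANS and CMAS in the pathway, 0.03. Of the 5 synthesis genes 0 passed, 2 being higher and 3 lower, with a median log2 change of -0.11.

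ST6GAL1 (ENSG00000073849, chromosome 3, 186930485 to 187078553, forward strand) had the largest log2 change of the 7 with all libraries in the fit. Without D2 or B2 that of PTPN6 was larger, at 0.65 and 0.74. The level of ST6GAL1 was 49.8, 48.4 and 35.6 FPKM in D1 to D3 and 29.4, 29.9 and 38.1 FPKM in B1 to B3. D1 and D2 lay above all other libraries, while D3 lay below B3, so the groups overlapped. The means were 44.6 ± 7.83 FPKM in DMSO and 32.5 ± 4.89 FPKM with bryostatin (SD, n = 3 each). The log2 change was -0.44 ± 0.16 (SE), with a 95% interval from -0.82 to -0.06, but an adjusted p of 0.244 in limma (unadjusted p = 0.0285). It was negative with each library left out, from -0.36 without D1 to -0.59 without D3, where the adjusted p was 0.0664 in limma. Its unadjusted p rose above 0.05 without D1 (0.0930), D2 (0.0865), B1 (0.0909) or B2 (0.0835), and the adjusted p with a library left out reached 0.601, all from limma. The cell-cycle genes, given above, also set D1 and D2 apart from the other 4 libraries, and their part in this difference was not tested. On the same scale the order of ST6GAL1 and CMAS differed between libraries: CMAS over ST6GAL1 was 0.748, 0.777 and 1.02 in D1 to D3 and 1.48, 1.31 and 1.08 in B1 to B3. Each bryostatin ratio thus lay above each DMSO ratio. The exact permutation test gave a two-sided p of 0.1, the smallest that 3 against 3 libraries allow. This ratio was chosen after the values were seen, so its p-value is no support for a difference.

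The window at the RefSeq start of ST6GAL1 holds the octamer bound by the B-cell factor OCT2, which 1.77% of promoters hold. The motifs named above were searched in the windows of all the genes described here, and no other window held the octamer. This window was chosen for display after that search, so the match carries no test. This start is 1 of several known for the gene, and which of them these reads came from cannot be read from values per gene.
ST6GAL1, chr3:186930276-186930575: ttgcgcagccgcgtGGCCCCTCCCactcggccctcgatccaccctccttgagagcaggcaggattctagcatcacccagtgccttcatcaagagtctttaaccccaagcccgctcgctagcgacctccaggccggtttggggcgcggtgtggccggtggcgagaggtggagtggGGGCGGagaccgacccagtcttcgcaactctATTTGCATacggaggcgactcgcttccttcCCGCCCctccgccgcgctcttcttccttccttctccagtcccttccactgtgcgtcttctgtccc
Capitals mark the octamer ATTTGCAT, 45 bases before the start, 2 GC boxes and 1 NF-kB match.

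Of 20 sialyltransferase genes 6 reached a mean of 1 FPKM, 10 had reads but a lower mean and 4 (ST6GAL2, ST6GALNAC5, ST8SIA2 and ST8SIA3) had no read. ST6GALNAC4, which acts on O-glycans, was the highest, at 50.7 ± 7.61 FPKM in DMSO and 41.8 ± 3.37 FPKM with bryostatin (log2 change -0.27, adjusted p = 0.326 in limma). ST3GAL2, which caps galactose in another linkage, was at 22.0, 18.7 and 13.9 FPKM in D1 to D3 and 12.3, 12.6 and 12.9 FPKM in B1 to B3, without overlap. Its log2 change was -0.47 ± 0.15 (SE; adjusted p = 0.227 in limma). Without D3, the fit in which 267 genes passed, it was -0.64 with an adjusted p of 0.0429 in limma. ST3GAL2 and ST6GAL1 thus had D1 and D2 as their highest libraries. ST6GAL1 over the sum of ST3GAL1 to ST3GAL6, also computed after the values were seen, was 1.92, 1.99 and 2.10 in D1 to D3 and 1.79, 1.94 and 2.10 in B1 to B3 (exact permutation p = 0.7, two-sided). ST8SIA4, a polysialic acid synthase gene named after its values were seen, was at 3.05, 5.55 and 2.84 FPKM in D1 to D3 and 6.76, 2.17 and 6.74 FPKM in B1 to B3, high in the same 3 libraries as PTPN6. Of the 6 tested genes 4 were lower and 2 higher, with a median log2 change of -0.14.

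**Figure D4:**
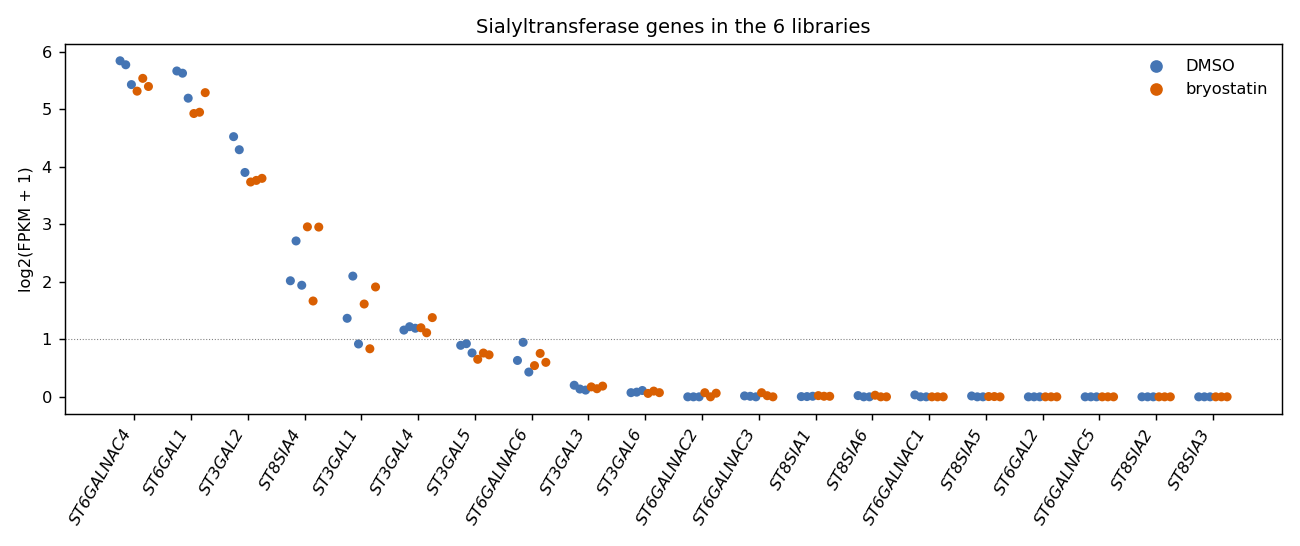
Log2(FPKM + 1) (vertical) of 20 sialyltransferase genes (horizontal, by mean level) in the 3 DMSO (blue) and 3 bryostatin (orange) libraries, with a dotted line at 1 FPKM. ST6GALNAC4, ST6GAL1 and ST3GAL2 lead, and 4 genes have no read.

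No gene of the other steps around CD22 ligands passed the test. Over all genes tested 5967 of 11071 were higher and 5104 lower. With TPM the median log2 change over all genes turned from 0.02 to -0.03, so small changes depend on the scale. Hexosamine genes, which supply the sugar nucleotide that GNE uses, had all 6 tested members higher with none passing and a median log2 change of 0.10. UAP1, GNPNAT1 and GFPT1, the most abundant, had log2 changes of 0.15, 0.06 and 0.02. The largest was that of AMDHD2, a deacetylase gene of the same sugar pathway named after its values were seen, at 3.18 ± 0.676 and 4.46 ± 0.381 FPKM without overlap (log2 change 0.40, adjusted p = 0.230 in limma). Of 16 genes that build the N-glycan acceptor 11 were lower and 5 higher, with 0 passing and a median of -0.08. B4GALT1, which adds the galactose that ST6GAL1 caps, was at 27.6, 24.1 and 20.5 FPKM in D1 to D3 and 15.8, 18.2 and 18.9 FPKM in B1 to B3. Each bryostatin library was thus below each DMSO library (log2 change -0.42 ± 0.13, SE; adjusted p = 0.221 in limma). The branching genes MGAT3 and MGAT5 had log2 changes of -0.18 and -0.08, and CHST2, a sulfotransferase gene whose product can raise CD22 binding, named after its values were seen, -0.44 (adjusted p = 0.267 in limma). Of 9 genes that remove or modify sialic acid 6 were tested and 0 passed, with log2 changes of 0.02 for the sialidase NEU3, -0.06 for CASD1 and -0.14 for CTSA. The others, named after their values were seen, included CMAHP, the human pseudogene of the sialic acid hydroxylase, at 0.41 and the sialidase NEU1 at -0.18, both with overlapping groups.

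Signalling partners of CD22 were all 19 expressed, and 0 passed, 8 being higher and 11 lower with a median log2 change of -0.08. The receptor chains CD79A and CD79B and the complement receptor CR2 were the most abundant, with log2 changes of 0.14, -0.10 and -0.36. At an unadjusted p under 0.05, 1 of 19 was higher and 4 were lower, beside 10.5% and 7.18% of all tested genes, and these 5 are named here after their values were seen. LYN was at 30.1, 25.6 and 23.8 FPKM in D1 to D3 and 19.9, 21.4 and 21.9 FPKM in B1 to B3. INPP5D, a lipid phosphatase recruited to inhibitory receptors, was at 24.4 ± 1.94 and 19.2 ± 1.16 FPKM. ATP2B4, the calcium pump that CD22 can engage, was at 4.93 ± 0.582 and 3.71 ± 0.152 FPKM, and PLCG2, a phospholipase of antigen receptor signalling, at 52.1 ± 3.42 and 43.2 ± 3.29 FPKM. In these 4 of 19 genes each bryostatin library lay below each DMSO library, as in 10.7% of all tested genes (adjusted p = 0.217 to 0.241 in limma). In 2 of 19, SHC1 and CD81, each bryostatin library lay above each DMSO library, as in 12.9% of all tested genes. The adaptor gene SHC1 was at 9.30 ± 0.706 and 11.6 ± 1.33 FPKM (adjusted p = 0.240 in limma). The tetraspanin gene CD81, also named after its values were seen, had a log2 change of 0.17 (adjusted p = 0.325 in limma). PTPN11, the gene of the other SHP phosphatase, also named after its values were seen, was at 39.2 ± 3.24 and 39.6 ± 1.39 FPKM, without the swings of PTPN6.

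Other inhibitory receptors with the same kind of tyrosine motif had 6 of 15 genes tested, all lower with 0 passing and a median log2 change of -0.22. Over all genes tested 5104 of 11071 were lower, with a median of 0.02. FCRL3 was at 10.3, 7.36 and 9.02 FPKM in D1 to D3 and 2.94, 6.95 and 4.35 FPKM in B1 to B3, without overlap (log2 change -0.83, adjusted p = 0.217 in limma). CD72 and LILRB1 had log2 changes of -0.14 and -0.27 with overlapping groups. Clathrin and adaptor genes, which take CD22 into the cell, had 7 of 10 members higher, 0 passing and a median of 0.07. CLTA, CLTC and AP2S1 were the most abundant, with log2 changes of 0.11, 0.02 and 0.23.

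**Figure D5:**
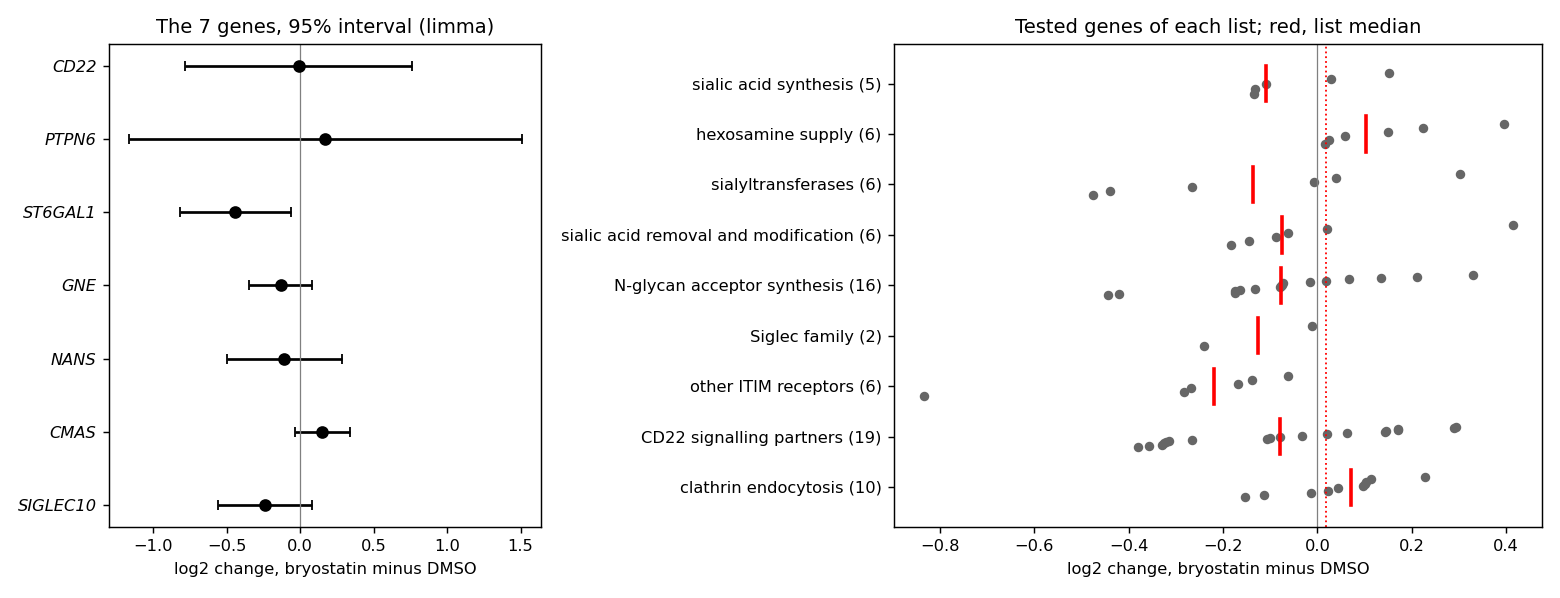
Left, log2 change of the 7 genes with bryostatin (horizontal; points, estimate; bars, 95% interval, limma). Right, log2 change of each tested gene of the 9 pathway lists (points; number tested in brackets), the list median (red bar) and the median of all genes (dotted, 0.02). The intervals of CD22 and PTPN6 are the widest, and only that of ST6GAL1 does not include 0.

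By level the 7 genes fell in the order CD22, PTPN6, CMAS, ST6GAL1, NANS, GNE and SIGLEC10. Their means over the 6 libraries were 156, 77.5, 39.1, 38.5, 14.8, 10.2 and 1.62 FPKM, with SDs of 49.4, 40.3, 2.74, 8.84, 2.44, 0.895 and 0.333 FPKM (n = 6). CD22 was above PTPN6 in 6 of 6 libraries, although its lowest library lay below the highest of PTPN6. PTPN6 was above CMAS in 5 of 6, all but B2, and CMAS above ST6GAL1 in 4 of 6. The order of these neighbours thus changed between libraries, and their differences were not tested. The steps from ST6GAL1 to NANS, from NANS to GNE and from GNE to SIGLEC10 held in each library without overlap.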

How the data were processed

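Polyadenylated RNA of 6 Raji libraries was sequenced, per the labels' protocols. The deposited values are FPKM per gene. Tools listed without a role, per the submitters' processing notes, are featureCounts 1.5.0-p3, HISAT2 2.0.5, DESeq2 1.20.0 and CASAVA, and the build is hg38. How strand was handled is not given in the sources used here. All 58735 gene coordinates equal those of GENCODE 29.

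Reads and depth were recovered from the deposited FPKM and gene lengths: 100% of values came out whole (tolerance 0.001 reads). The recovered depth was not the number of reads on genes. In D2 it was 21910148 against 21379437 reads, and in B1 18969151 against 19405370 reads. Voom used this depth too, so it is no independent check of the scaling. Tests used limma 3.58.1 (R 4.3.3) with a variance trend on log2(FPKM + 1) for the 11071 genes whose mean reached 1 FPKM. Adjusted p-values are Benjamini-Hochberg values over all tested genes. In 5 simulations of reads for those 11071 genes, with 200 changed, 93.4% of 2-fold and 99.0% of 4-fold changes were recovered. Whether the simulated spread equalled that between these libraries was not tested, so these shares do not show what this comparison can find. For PTPN6 a 2-fold rise or fall lies inside its limma interval, which runs from 0.446-fold to 2.84-fold.

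The 7 genes and the lists were chosen with earlier results of these data known. Named are the 7 genes, the 3 most abundant members of each pathway list where none passed, the 5 coding genes nearest to CD22 and genes overlapping the 7 or within 25 kb of CD22. Others are marked as named after their values were seen. Alternatives were 19 planned settings and 2 added after the data were seen, the removal of loess trends (span 0.5) on GC content and on gene length. All pairs of libraries within a group differed beyond sampling noise, the chi-square of their reads being 13.5 or more per gene. Promoters are from RefSeq, and all 7 genes matched.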

Additional observations from a re-analysis of the deposited data

How the results depend on the processing

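No gene of the 7 passed under any of the 21 alternatives (pseudocount, filter, scaling, moderation, voom, library weights, replicate block, each library left out, and the 2 trends). ST6GAL1, GNE and SIGLEC10 kept a negative and CMAS a positive log2 change in each alternative that gave a value; SIGLEC10 gave none with a filter of 5 FPKM. Values were -0.59 to -0.36 for ST6GAL1, -0.20 to -0.09 for GNE, -0.40 to -0.13 for SIGLEC10 and 0.05 to 0.19 for CMAS. With each library left out, CD22 ran from -0.25 to 0.29, PTPN6 from -0.18 to 0.74 and NANS from -0.25 to 0.020, and library weights turned CD22 to 0.015; the causes were not tested. Over all genes, 1 gene passed with a pseudocount of 0.1 and 1 with TPM, and 0 to 267 with a library left out, the 267 without D3. Of the 76 tested genes in the pathway lists, 0 to 1 passed with a library left out, ST3GAL2 without D3. No effect shared by replicate number was seen. Deviations from the group means correlated over genes at -0.29, -0.32 and -0.11 for equal numbers, no library correlating best with its own number. These correlations cannot show whether libraries of equal number were prepared together. With voom on the recovered reads 0 genes passed. With the replicate block 0 genes passed, CD22 had -0.01 and ST6GAL1 an adjusted p of 0.468. Depth limits SIGLEC10 and the weak Siglec and sialyltransferase genes, not CD22 or PTPN6.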
